A study of Mus musculus with 6 samples.

Results

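Transcripts of 10 genes of the NF-kB system were followed by RNA sequencing in EL4, a lymphoma line of mouse T cells. The genes were taken by symbol and comprise the 5 subunit genes Rela, Rel, Relb, Nfkb1 and Nfkb2, the inhibitor genes Nfkbia, Nfkbib and Nfkbie, and the noncanonical regulators Map3k14 and Traf3. Each symbol matched 1 of the 51912 gene IDs in the count table, and all 10 passed the filter on low counts that left 13484 genes for testing. Cells were wild type and received 10 µM RGFP966, which inhibits the deacetylase HDAC3, or vehicle alone, both for 24 h, with 3 libraries in each group. The data describe 1 cell line at 1 dose and 1 time, and nothing in the labels tells separate cultures from repeat libraries, so p-values measure the spread between these libraries, which may be technical. In RNA pooled from a culture, fewer cells expressing a gene and less RNA per cell cannot be told apart.

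NF-kB proteins act as dimers that bind kappa B sites in DNA. In the canonical pathway, receptor signals activate the IkB kinase complex, which destroys the IkB inhibitors (the products of Nfkbia, Nfkbib and Nfkbie) and frees dimers of RelA or c-Rel with the processed product of Nfkb1. In the noncanonical pathway, the kinase NIK, encoded by Map3k14, drives processing of the Nfkb2 precursor and release of RelB dimers, while Traf3 keeps NIK protein low. In T cells the antigen receptor reaches the canonical pathway through a complex that holds Bcl10 and Malt1. Several genes of the system are themselves known kappa B targets, and HDAC3 is known to deacetylate RelA.

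The start regions of the genes are shown because Nfkb2, Nfkbia and Relb are among those known targets. Windows of 300 bases, from 250 bases before to 50 after a start site, were taken from RefSeq on GRCm38.p6 and matched for 8 of the 10 genes, not for Relb and Nfkb1. They were searched on both strands for the kappa B consensus, a degenerate 10-base motif, and for GGACTTTCC. Of the forms that the consensus allows, only GGGACTTTCC contains GGACTTTCC. At least 1 consensus match lay in windows of 5 of the 8 genes, against 9.55% of all 27025 genes in the table; overlapping matches on both strands count as 1 stretch. Each line gives 30 bases, 5′ to 3′ on the strand of the gene, with the match in capitals.
Nfkb2, start site 1 (chr19:46304689-46304718, plus strand): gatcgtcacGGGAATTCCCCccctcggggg
Nfkb2, start site 1 (chr19:46304716-46304745, plus strand): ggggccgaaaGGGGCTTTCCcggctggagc
Nfkb2, start site 2 (chr19:46305449-46305478, plus strand): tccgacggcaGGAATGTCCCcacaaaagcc
Nfkb2, start sites 2 and 3 (chr19:46305695-46305724, plus strand): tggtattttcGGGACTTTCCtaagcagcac
Nfkbia (chr12:55492657-55492686, minus strand): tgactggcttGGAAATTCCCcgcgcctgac
Nfkbia (chr12:55492806-55492835, minus strand): ctggtcgggaGGACTTTCCagccactcagg
Nfkbie (chr17:45555584-45555613, plus strand): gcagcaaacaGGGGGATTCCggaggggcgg
Rel (chr11:23771041-23771070, minus strand): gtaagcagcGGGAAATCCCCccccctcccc
Traf3 (chr12:111166350-111166379, plus strand): ggcggcccgcGGGGATTTCCagcgcgcgag
The Nfkb2 matches began 39 and 11 bases before its first listed start site and 236 before its second. The last began 225 bases before the third start site, and both matches at the first start site and this one lie in annotated Nfkb2 exons. Those of Nfkbia began 29 and 178 bases before the start, the farther one holding only GGACTTTCC, a motif found in windows of 0.4% of genes. The matches of Nfkbie, Rel and Traf3 began 106, 92 and 10 bases before the start. No match was found in the windows of Rela, Nfkbib and Map3k14, which says only that these letters are not in those windows. Among all tested genes, 13.7% of the 1104 with the consensus in a window were higher and 13.7% lower with RGFP966, against 12.4% and 13.4% of the 8252 with a window and no match.

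With RGFP966, 4 of the 10 genes fell and 0 rose by edgeR's quasi-likelihood test with Benjamini-Hochberg adjustment over all 13484 genes (adjusted p under 0.05). The 4 were Relb, Nfkb2, Nfkb1 and Nfkbib. Among all tested genes 23.3% were called in either direction, 11.9% lower and 11.4% higher. The median log2 fold change of the 10 genes was -0.14, against 0.00 over all genes. At an unadjusted p under 0.05, Rela, Map3k14 and Traf3 were also lower and Rel was higher. In 6 of the 10 genes the RGFP966 and vehicle libraries did not overlap in CPM (reads of a gene per 1000000 counted reads), against 36.3% of all tested genes. All 10 genes averaged at least 5 CPM, and of the genes tested at that minimum 29.5% were called in either direction. Over all genes 1543 were higher and 1602 lower, against 1838 higher (13.6%) and 1270 lower (9.42%) under upper-quartile scaling, where Relb, Nfkb2, Nfkb1 and Nfkbib were again the genes called lower.

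**Figure D1:**
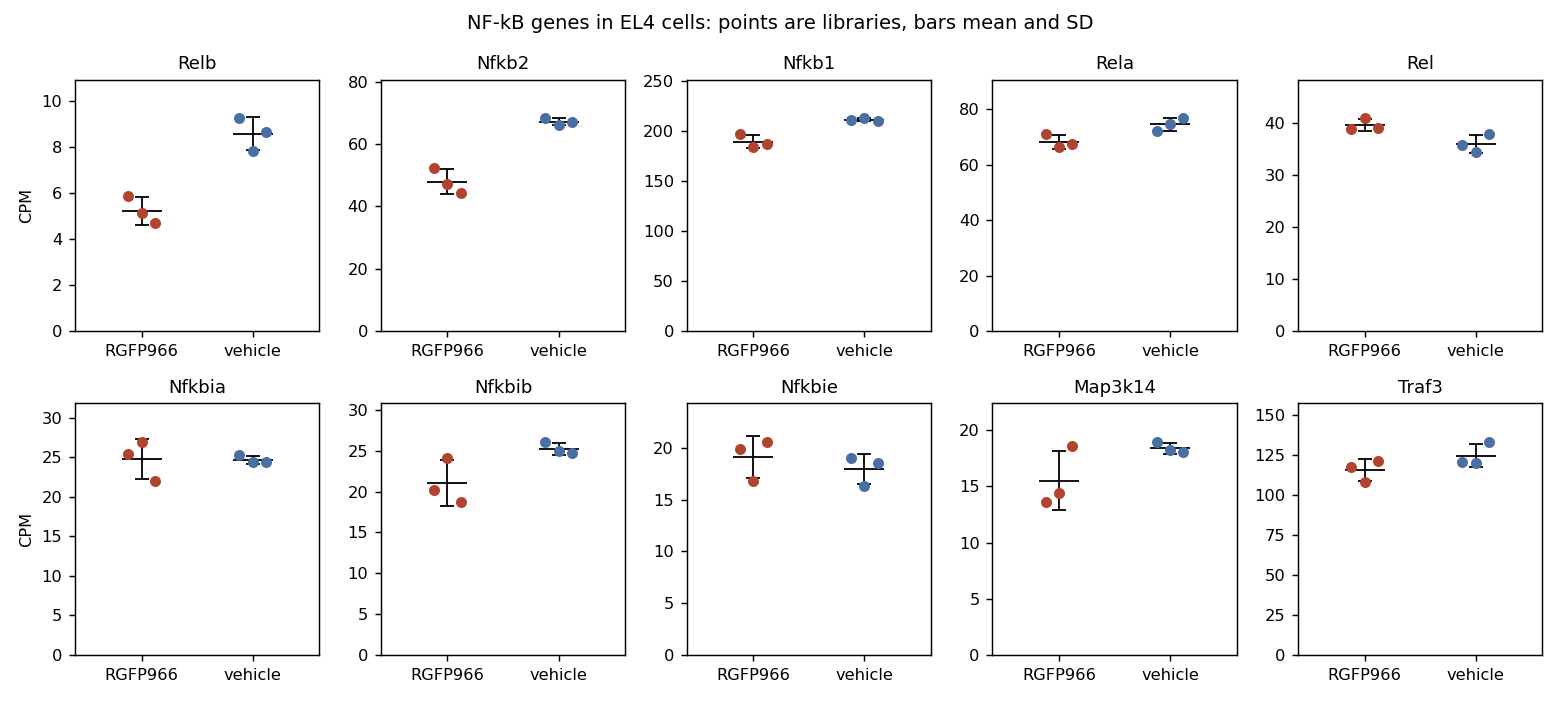
CPM of the 10 NF-kB genes in each library (vertical axes, from 0), RGFP966 on the left and vehicle on the right of each panel; points are libraries, and bars give the mean and SD of 3. The Relb and Nfkb2 points of the RGFP966 libraries all lie below those of the vehicle libraries, while those of Nfkbia and Nfkbie overlap.

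The noncanonical subunit genes had the largest falls. Relb (ENSMUSG00000002983, chromosome 7, 19606217 to 19629438, minus strand), which encodes RelB, the transactivating partner of the processed Nfkb2 product, measured 5.88, 5.12 and 4.69 CPM in RGFP966 libraries 1 to 3 and 9.26, 7.84 and 8.63 CPM in vehicle libraries 1 to 3. Every RGFP966 library lay below every vehicle library. The log2 fold change was -0.71 ± 0.15 (SE, adjusted p = 3.35e-04), a change of -39.0%, with a 95% interval from -1.02 to -0.41. Relb had the fewest reads of the 10 genes, and its values rest on 66 to 80 reads in RGFP966 and 128 to 142 reads in vehicle libraries.

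Nfkb2 (ENSMUSG00000025225, chromosome 19, 46304320 to 46312385, plus strand), which encodes the precursor that the noncanonical pathway processes, measured 52.3, 47.1 and 44.3 CPM in RGFP966 libraries and 68.3, 66.1 and 67.0 CPM in vehicle libraries. The groups did not overlap, and the vehicle libraries lay closer together than the RGFP966 libraries. The mean was 47.9 ± 4.04 CPM in RGFP966 and 67.1 ± 1.08 CPM in vehicle libraries (SD, n = 3 each). On the log2 scale Nfkb2 changed by -0.49 ± 0.06 (SE, adjusted p = 5.53e-09). It ranked 122 by p among all tested genes. Of the exonic bases of Nfkb2, 18.1% are overlapped by genes on the opposite strand, and the strand setting of the counting is not given, so reads from there cannot be assigned to either. Of these partners, Psd (6.52% of the bases) measured 20.02 to 22.4 CPM in RGFP966 and 22.2 to 23.5 CPM in vehicle libraries (log2 fold change -0.12, adjusted p = 0.337). The other partner, AC114539.1 (11.6%), is not among the gene IDs of the count table.

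Canonical subunit genes differed less. Nfkb1 (ENSMUSG00000028163, chromosome 3, 135584655 to 135691547, minus strand), which encodes the precursor of the usual partner of RelA, measured 197, 184 and 188 CPM in RGFP966 libraries and 211, 213 and 210.3 CPM in vehicle libraries. These groups did not overlap, and the log2 fold change was -0.16 ± 0.04 (SE, adjusted p = 2.43e-03), a change of -10.3%. Rela (ENSMUSG00000024927, chromosome 19, 5637483 to 5648130, plus strand), the gene of the main activating subunit, measured 71.0, 66.2 and 67.6 CPM in RGFP966 libraries and 72.3, 74.5 and 76.8 CPM in vehicle libraries. Its groups did not overlap either, but the log2 fold change of -0.13 ± 0.05 was not called (adjusted p = 0.0694; 95% interval -0.23 to -0.02).

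Rel, which encodes c-Rel, a subunit prominent in activated lymphocytes, was the single subunit gene with a positive value (ENSMUSG00000020275, chromosome 11, 23736847 to 23770970, minus strand). It measured 38.8, 40.9 and 39.1 CPM in RGFP966 libraries and 35.7, 34.4 and 37.8 CPM in vehicle libraries. All 3 RGFP966 libraries lay above the vehicle libraries, and the log2 fold change of 0.14 ± 0.07 (SE) was not called by edgeR (adjusted p = 0.134; 95% interval 0.00 to 0.27).

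**Figure D2:**
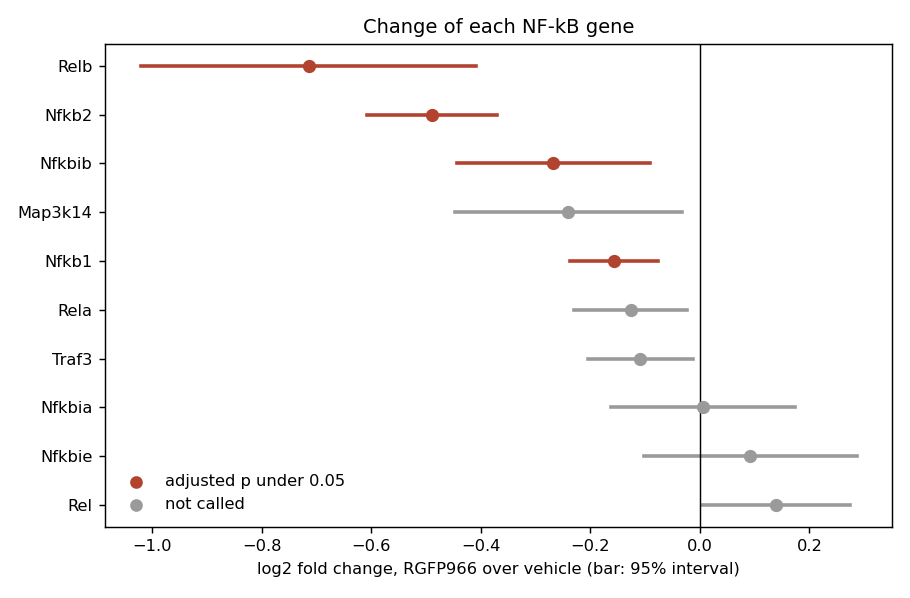
Log2 fold change, RGFP966 over vehicle (horizontal axis), of each of the 10 genes with its unadjusted 95% interval; red marks an adjusted p under 0.05 and grey the rest. Relb at -0.71 and Nfkb2 at -0.49 lie farthest from 0, and Rel at 0.14 is the highest.

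Among the inhibitors, Nfkbib fell and the other 2 were not called. Nfkbib (ENSMUSG00000030595, chromosome 7, 28758251 to 28767512, minus strand), the gene of IkB-beta, measured 20.2, 24.1 and 18.8 CPM in RGFP966 libraries and 26.1, 24.9 and 24.7 CPM in vehicle libraries. The highest RGFP966 library lay just under the lowest vehicle library. The log2 fold change was -0.27 ± 0.09 (SE, adjusted p = 0.0208). That call was lost without RGFP966 library 1 (-0.24, adjusted p = 0.0889), RGFP966 library 3 (-0.18, 0.204) or vehicle library 1 (-0.24, 0.0768), and in the DESeq2 Wald test (-0.26, 0.106). Opposite-strand genes overlap 16.4% of its exonic bases: Ccer2 was at 0 to 0.0737 CPM in all libraries, and Sirt2, which overlaps 1.94%, changed by -0.04 on the log2 scale (adjusted p = 0.664).

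Nfkbia (ENSMUSG00000021025, chromosome 12, 55489410 to 55492647, minus strand), the gene of IkB-alpha and a textbook target of canonical NF-kB, measured 25.5, 27.0 and 22.05 CPM in RGFP966 libraries and 25.3, 24.4 and 24.4 CPM in vehicle libraries. The vehicle values lay within the range of the RGFP966 values. Its log2 fold change was 0.01 ± 0.08 (SE, adjusted p = 0.970), with a 95% interval from -0.16 to 0.17. Nfkbie (ENSMUSG00000023947, chromosome 17, 45555703 to 45563169, plus strand), the gene of IkB-epsilon, measured 19.9, 16.8 and 20.6 CPM in RGFP966 libraries and 19.0, 16.3 and 18.5 CPM in vehicle libraries. These groups overlapped too (log2 fold change 0.09 ± 0.10, adjusted p = 0.547; 95% interval -0.10 to 0.29).

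Neither noncanonical regulator was called. Map3k14 (ENSMUSG00000020941, chromosome 11, 103219762 to 103267472, minus strand), the gene of the kinase NIK, measured 13.6, 14.4 and 18.6 CPM in RGFP966 libraries and 19.0, 18.2 and 18.0 CPM in vehicle libraries. RGFP966 library 3 lay among the vehicle libraries and the other 2 below them. The log2 fold change was -0.24 ± 0.10 (SE, adjusted p = 0.0859), with -0.39 (adjusted p = 0.0117) without RGFP966 library 3 and -0.15 (adjusted p = 0.398) without RGFP966 library 1. Traf3 (ENSMUSG00000021277, chromosome 12, 111166370 to 111267153, plus strand), the gene of the adaptor that brings NIK to its ubiquitin ligases, measured 117, 108 and 121 CPM in RGFP966 libraries and 121, 120.0 and 133 CPM in vehicle libraries. The groups overlapped, and the log2 fold change of -0.11 ± 0.05 was not called (adjusted p = 0.0944). Without vehicle library 2 it was -0.14 (adjusted p = 0.0426), without vehicle library 3 it was -0.053 (adjusted p = 0.525), and without RGFP966 library 2 it was -0.063 (adjusted p = 0.441).

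Ratios of the read counts of 2 genes within a library do not depend on how libraries are scaled. For Relb over Rela the ratio was 0.0828, 0.0773 and 0.0694 in RGFP966 libraries and 0.128, 0.105 and 0.112 in vehicle libraries, a change of -33.6% in the geometric mean. The ratio of Nfkb2 to Nfkb1 was 0.265, 0.255 and 0.236 in RGFP966 libraries and 0.323, 0.310 and 0.318 in vehicle libraries, a change of -20.6%. In both ratios all RGFP966 libraries lay below all vehicle libraries. Relb over Rel, the noncanonical against the lymphocyte subunit, was 0.132 ± 0.0170 in RGFP966 and 0.238 ± 0.0179 in vehicle libraries (SD, n = 3 each), a change of -44.8%. Rel over Rela was 0.581 ± 0.0359 in RGFP966 and 0.483 ± 0.0183 in vehicle libraries, 20.3% higher, and Nfkbib over Nfkbia was 0.846 ± 0.0508 in RGFP966 and 1.02 ± 0.00891 in vehicle libraries. Those 5 of the 8 ratios compared had groups that did not overlap. Each had p = 0.1 in the exact permutation test (two-sided), below which 3 against 3 libraries cannot go. After Benjamini-Hochberg adjustment over the 8 ratios each exact permutation p became 0.16. The ratios share genes, and Relb over Rel is Relb over Rela divided by Rel over Rela, so they are not separate results. The share of non-overlapping ratios among other gene pairs was not counted. Of single tested genes, 36.3% did not overlap in CPM. Groups overlapped for Nfkbia over Rela and Map3k14 over Traf3 (exact permutation p = 0.3 each) and for Nfkbie over Nfkbia (exact permutation p = 0.7).

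**Figure D3:**
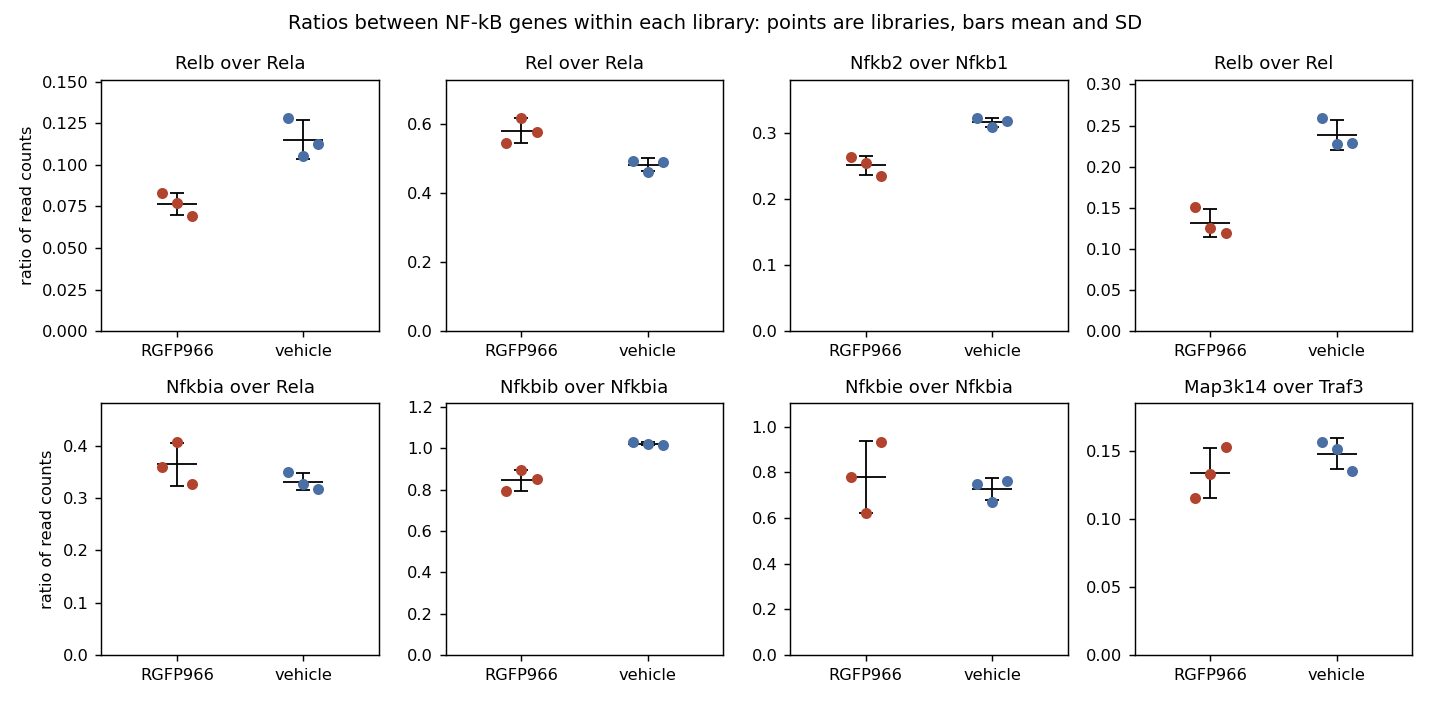
Ratio of the read counts of a pair of NF-kB genes within each library (vertical axes, from 0), RGFP966 left and vehicle right; points are libraries, and bars give the mean and SD of 3. The groups do not overlap for Relb over Rela, Rel over Rela, Nfkb2 over Nfkb1, Relb over Rel and Nfkbib over Nfkbia.

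Levels were compared between genes as CPM per kilobase of annotated exons. On this scale the subunits ranked, in RGFP966 libraries, Rela at 22.2 ± 0.797, Nfkb1 at 15.7 ± 0.568, Nfkb2 at 10.4 ± 0.881, Rel at 5.31 ± 0.155 and Relb at 1.35 ± 0.155 (SD, n = 3). Vehicle libraries gave the same order, with Rela at 24.3 ± 0.743, Nfkb1 at 17.5 ± 0.129, Nfkb2 at 14.6 ± 0.236, Rel at 4.82 ± 0.229 and Relb at 2.21 ± 0.184. No neighbours in that order came within their SDs of each other. The scale depends on the length used: per kilobase of the longest coding transcript, Nfkb1 led, at 46.1 ± 1.66 in RGFP966 and 51.4 ± 0.378 in vehicle libraries, since its annotated exons span 12061 bases and its longest coding transcript 4117. Of the summed level of the 5 subunit genes per exonic kilobase, Nfkb2 made up 18.9% ± 0.898 in RGFP966 and 23.1% ± 0.474 in vehicle libraries, and Relb 2.44% ± 0.189 and 3.48% ± 0.288. Among the other members, per exonic kilobase, Traf3 stood at 15.7 ± 0.933, Nfkbia at 15.4 ± 1.57, Nfkbib at 9.70 ± 1.28, Nfkbie at 6.27 ± 0.671 and Map3k14 at 2.37 ± 0.406 in RGFP966 libraries. In vehicle libraries they were Traf3 at 17.0 ± 1.02, Nfkbia at 15.3 ± 0.335, Nfkbib at 11.6 ± 0.345, Nfkbie at 5.90 ± 0.463 and Map3k14 at 2.81 ± 0.0753. Levels within their SDs of each other were those of Nfkb1, Traf3 and Nfkbia and those of Nfkb2 and Nfkbib in RGFP966 libraries, and those of Nfkb1 and Traf3 in vehicle libraries.

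The genes most like Relb over the 6 libraries, out of 10000 others with a mean of at least 5 CPM, were Wdfy3, Tfeb, Magi2, Fam83d and Cdc20, chosen by the root mean square difference of log2 CPM after centring each gene on its mean (0.0796 to 0.108). Tfeb encodes a transcription factor of lysosomal genes and Cdc20 an activator of the anaphase-promoting complex. Their log2 fold changes lay between -0.73 and -0.55. Those most like Nfkb2 were Ndrg4, Ufc1, Rnh1, Ankle1 and Apba1 (0.0339 to 0.0478), with log2 fold changes between -0.47 and -0.43. The likeness is a description over 6 libraries in 2 groups, and any gene with a fall of similar size comes close.

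Among the atypical IkB genes, whose products act mainly in the nucleus, 2 of 3 tested fell and 0 rose, against 11.9% of all tested genes lower, with a median log2 fold change of -0.25 against 0.00 over all genes. Nfkbid, the gene of IkBNS, a nuclear partner of Nfkb1 in lymphocytes, averaged 23.5 ± 0.903 CPM in RGFP966 and 27.99 ± 0.0211 CPM in vehicle libraries (SD, n = 3 each; log2 fold change -0.25, adjusted p = 0.0138). Nfkbil1, whose place in the family rests on sequence likeness, averaged 4.49 ± 0.581 CPM in RGFP966 and 6.49 ± 0.468 CPM in vehicle libraries (-0.53, adjusted p = 0.0154). Neither was called by the DESeq2 Wald test or without RGFP966 library 1, and Nfkbil1 was also lost without vehicle library 1 or vehicle library 2. Nfkbiz was not called (0.08, adjusted p = 0.771), and Bcl3 had at most 8 reads in a library.

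Of 24 tested kinases and adaptors of the canonical pathway, 1 rose and 4 fell, and the median log2 fold change was -0.03. The share called, 20.8%, was near the 23.3% of all tested genes. Bcl10, part of the antigen receptor adaptor complex, averaged 44.1 ± 2.04 CPM in RGFP966 and 53.0 ± 1.604 CPM in vehicle libraries (-0.27, adjusted p = 7.20e-04). Malt1 (-0.05, adjusted p = 0.570), its partner, was not called and was picked with its value in view. Tab1 and Tab2 encode adaptors of the kinase that activates the IkB kinase complex, and they went opposite ways: Tab1 fell (-0.27, adjusted p = 8.45e-04) and Tab2 rose (0.12, adjusted p = 0.0257). Tab1 was called in all 14 other settings and Tab2 in 9, its call being lost in the DESeq2 Wald test, with no filter, and without RGFP966 library 1, RGFP966 library 3 or vehicle library 2. Irak1, a kinase of interleukin-1 and Toll-like receptors, fell (-0.17, adjusted p = 2.84e-03), as did Rbck1, part of the linear ubiquitin ligase (-0.13, adjusted p = 0.0153), the call of Rbck1 being lost without RGFP966 library 2, RGFP966 library 3 or vehicle library 1. The subunits of the IkB kinase complex itself were not called: Chuk measured -0.09 (adjusted p = 0.128), Ikbkb 0.07 (adjusted p = 0.335) and Ikbkg 0.15 (adjusted p = 0.0593).

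Of 9 regulators tested for the noncanonical pathway, Peli1 rose and Zfp91 fell, a share of 22.2% called against 23.3% of all tested genes (median log2 fold change -0.09). Peli1, an E3 ubiquitin ligase known to restrain NF-kB in T cells, averaged 54.1 ± 3.37 CPM in RGFP966 and 43.3 ± 1.56 CPM in vehicle libraries (0.32 ± 0.06 SE, adjusted p = 6.60e-05). Zfp91, a ligase known to stabilise NIK, averaged 297 ± 0.337 CPM in RGFP966 and 367 ± 17.4 CPM in vehicle libraries (-0.30 ± 0.04, adjusted p = 1.69e-08). The ligase genes that act with Traf3 on NIK were not called, with Traf2 at -0.11 (adjusted p = 0.280), Birc2 at 0.06 (adjusted p = 0.472) and Birc3, a known NF-kB target as well, at -0.03 (adjusted p = 0.804). Among 15 brakes on NF-kB signalling, 4 rose and 1 fell, 33.3% against 23.3% of all tested genes. Their median log2 fold change was 0.02. The 9 regulators and 15 brakes all averaged at least 5 CPM, and of the genes tested at that minimum 29.5% were called. Usp18, known chiefly as an interferon-stimulated isopeptidase, averaged 16.2 ± 0.858 CPM in RGFP966 and 10.3 ± 0.592 CPM in vehicle libraries (0.65, adjusted p = 9.30e-06). Commd1, which promotes degradation of RelA, rose (0.55, adjusted p = 2.73e-03), and so did N4bp1 (0.19, adjusted p = 1.78e-03) and Tnip1 (0.17, adjusted p = 0.0200), the last not called in the DESeq2 Wald test or without RGFP966 library 1 or vehicle library 2. Nlrc3, a brake in T cells, fell (-0.37, adjusted p = 2.79e-05). Tnfaip3, the ubiquitin-editing brake that NF-kB itself induces, was not called (0.02, adjusted p = 0.876).

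**Figure D4:**
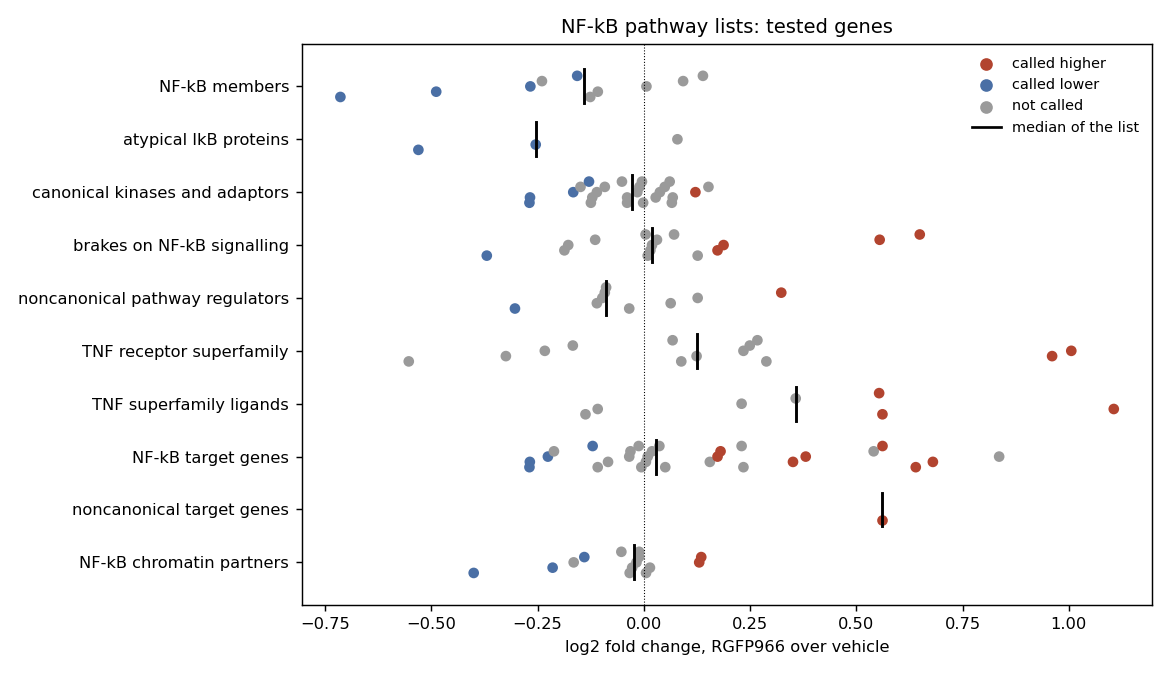
Log2 fold change, RGFP966 over vehicle (horizontal axis), of every tested gene in the 10 NF-kB pathway lists (rows); red marks genes called higher, blue genes called lower and grey the rest, and a black line the median of a list. A gene in several lists appears in each; the 10 NF-kB genes in the top row have 4 called lower and none higher by edgeR.

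Receptors of the TNF family feed both pathways, and of 13 tested 2 rose and 0 fell. That is 15.4% called, below the 23.3% of all tested genes, with a median log2 fold change of 0.12. Tnfrsf8, the gene of CD30, a receptor of activated T cells and some lymphomas, averaged 21.5 ± 1.14 CPM in RGFP966 and 11.04 ± 1.28 CPM in vehicle libraries (0.96 ± 0.10 SE, adjusted p = 3.03e-10). Tnfrsf19 averaged 61.8 ± 3.13 CPM in RGFP966 and 30.8 ± 1.42 CPM in vehicle libraries (1.01 ± 0.06, adjusted p = 1.69e-17). Ltbr and Cd40, textbook inputs of the noncanonical pathway, had no read in any library, where a count of 0 allows up to 0.203 to 0.232 CPM in RGFP966 and 0.182 to 0.195 CPM in vehicle libraries, counting error only. Of 7 tested ligands 3 rose and 0 fell, against 11.4% of all tested genes higher, with a median log2 fold change of 0.36. Tnfsf10, the gene of TRAIL, averaged 20.8 ± 1.55 CPM in RGFP966 and 14.2 ± 1.04 CPM in vehicle libraries (0.55, adjusted p = 1.88e-05). Tnfsf11, which encodes the ligand of the noncanonical receptor RANK, averaged 5.47 ± 0.513 CPM in RGFP966 and 3.70 ± 0.225 CPM in vehicle libraries (0.56, adjusted p = 0.0188), and Tnfsf4, the gene of OX40 ligand, 2.18 ± 0.535 CPM in RGFP966 and 1.01 ± 0.417 CPM in vehicle libraries (1.11, adjusted p = 9.51e-03). Tnfsf11 and Tnfsf4 lay low and lost their calls in the DESeq2 Wald test. Tnfsf11 also lost it without RGFP966 library 2 or vehicle library 1, and Tnfsf4 without RGFP966 library 3 or vehicle library 3. Ltb, the lymphotoxin gene, averaged 0.724 ± 0.139 CPM in RGFP966 and 0.780 ± 0.120 CPM in vehicle libraries and was not called (-0.11, adjusted p = 0.890).

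Known NF-kB target genes moved both ways. Of 52 listed, 28 were tested, and of these 7 rose and 4 fell, 39.3% against 23.3% of all genes, with a median log2 fold change of 0.03. Gadd45b, a stress gene that restrains JNK signalling, averaged 19.1 ± 1.38 CPM in RGFP966 and 11.9 ± 0.857 CPM in vehicle libraries (0.68, adjusted p = 1.27e-06). Ier3, an immediate early survival gene, rose (0.64, adjusted p = 1.61e-04), as did the adhesion receptor gene Cd44 (0.38, adjusted p = 2.88e-10) and Myc (0.18, adjusted p = 3.55e-04). Stat5a, a cytokine signal transducer, fell (-0.27, adjusted p = 2.18e-04), and so did the AP-1 gene Junb (-0.27, adjusted p = 6.85e-04), Cflar, an inhibitor of caspase activation (-0.23, adjusted p = 0.0276), and Sod2, the mitochondrial superoxide dismutase (-0.12, adjusted p = 0.0406). The call of Cflar held in 9 and that of Sod2 in 3 of the 14 other settings. Cflar lost it under upper-quartile factors, in the DESeq2 Wald test and without RGFP966 library 1, vehicle library 2 or vehicle library 3, and Sod2 without any 1 of the libraries other than vehicle library 1. In the DESeq2 Wald test 4 targets rose and 2 fell. Of 10 organ-patterning targets of the noncanonical pathway, Tnfsf11 alone was tested. Across all lists, 23 of the 160 genes had no read in any library.

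Chromatin partners of NF-kB showed 2 rises and 3 falls among 14 tested, 35.7% called against 23.3% of all tested genes. All 14 averaged at least 5 CPM, and of the genes tested at that minimum 29.5% were called. The median log2 fold change of the 14 was -0.02. Hdac3, whose product RGFP966 inhibits, averaged 85.9 ± 2.49 CPM in RGFP966 and 89.1 ± 3.83 CPM in vehicle libraries and was not called (-0.05, adjusted p = 0.482). Kat2b, an acetyltransferase gene, fell (-0.40, adjusted p = 4.55e-06), as did Sirt1, a deacetylase known to act on RelA (-0.21, adjusted p = 6.81e-03). Hdac1, a deacetylase gene, rose (0.13, adjusted p = 0.0103), a call lost without RGFP966 library 2 or vehicle library 1.

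The libraries held 12935443 to 14768540 counts with RGFP966 and 15380331 to 16451017 with vehicle, so all RGFP966 libraries were smaller than all vehicle libraries. T cell markers were present, 11 of 12 at a mean of at least 1 CPM, with a summed level of 2172 to 2263 CPM in RGFP966 and 2225 to 2262 CPM in vehicle libraries. Of the markers of other types, 2 of 7 for B cells were at 0 in all libraries (Ms4a1 among them), 1 of 8 myeloid (Adgre1), 1 of 7 dendritic (Clec9a), 1 of 6 fibroblast (Col3a1), 2 of 5 endothelial (Kdr and Tie1), 1 of 5 epithelial (Epcam) and 2 of 10 for retina (Gnat1 and Crx), the tissue that the submitters' extraction text names. Other markers of these lists had reads, and 2 of 3 tested dendritic genes, 1 of 2 fibroblast genes and the 1 tested endothelial gene were called higher with RGFP966. Among all tested genes 11.4% were called higher. Of the 7 tested B cell, myeloid, retina and epithelial markers, 0 were called by edgeR and 1, a myeloid one, had an unadjusted p under 0.05. Of 11 tested T cell markers 2 were higher and 4 lower, 54.5% called against 23.3% of all tested genes, of which 11.9% were lower. The summed dendritic cell list, of which 3 of 7 reached 1 CPM, was 37.6 to 44.6 CPM in RGFP966 and 28.4 to 30.6 CPM in vehicle libraries, and the B cell list, with 1 of 7, was 2.40 to 3.05 CPM in RGFP966 and 2.41 to 3.23 CPM in vehicle libraries. The myeloid list, with 2 of 8, was 9.81 to 9.97 CPM in RGFP966 and 8.39 to 10.3 CPM in vehicle libraries, and the retina list, with 2 of 10, was 4.33 to 4.94 CPM in RGFP966 and 4.38 to 4.81 CPM in vehicle libraries. The fibroblast and endothelial lists each had 1 gene at 1 CPM, at sums of 54.6 to 58.0 and 61.5 to 63.5 CPM in RGFP966 against 44.1 to 45.1 and 49.5 to 52.5 CPM in vehicle libraries, and the epithelial list had none, at 1.31 to 1.83 CPM in RGFP966 and 0.669 to 1.76 CPM in vehicle libraries. The part of these sums in the results above was not tested.

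The calls were set against 14 other settings. Between 3 and 5 of the 10 genes were called lower in each of them, and 0 higher. Of all genes, the share called in either direction was 23.1% with DESeq2 size factors, 23% with upper-quartile factors, 22.9% with total count alone, 11.7% with no filter, 29.5% at a minimum of 5 CPM, 17.4% in the DESeq2 Wald test, 23.1% in limma-voom and 25.4% with a replicate block. Without RGFP966 library 1, 2 or 3 it was 18.4%, 19.4% and 17.4%, and without vehicle library 1, 2 or 3 it was 19.8%, 20.6% and 19.2%.

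**Figure D5:**
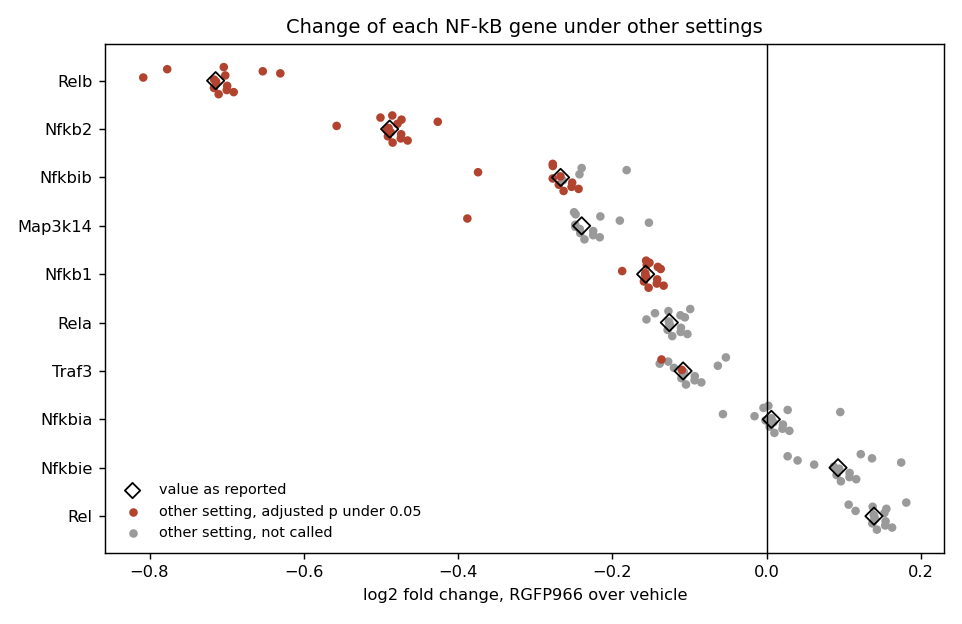
Log2 fold change, RGFP966 over vehicle (horizontal axis), of the 10 NF-kB genes as reported (diamonds) and under 14 other settings of normalization, filter, test, block or left-out library (points; red for an adjusted p under 0.05, grey otherwise). Relb, Nfkb2 and Nfkb1 are red in all 14 settings, Nfkbib in 10 of 14, Traf3 in 2 and Map3k14 in 1.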

How the data were processed

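RNA of EL4 cells was sequenced from libraries made with the NEBNext Ultra kit, per the labels. The deposited table holds the authors' raw counts per Ensembl mouse gene, 1 column for each of 6 libraries, with 0 rows that name no gene. The submitters' processing notes list HTSeq 0.6.0, HISAT2 2.1.0, Bowtie2 2.2.3, TopHat2 and CASAVA, with the build mm10. Which tool did what, the annotation release and how strand was treated are not given in the sources used. Symbols matched 51633 IDs (99.46%). Coordinates, counted from 1, exon lengths and overlaps came from GENCODE M21 (GRCm38, the assembly of mm10).

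Counts of all genes were fitted in edgeR 4.0.16 (R 4.3.3) with filterByExpr defaults, TMM normalization and robust quasi-likelihood testing, group as the only term. Each SE is the size of the log2 fold change divided by root F. Per-library values, means and SDs in CPM use TMM-scaled totals; sums of markers and levels of overlapping genes use plain totals. Ratios were compared by exact permutation. The procedure was tested on simulated data with the same dispersion for every gene. The changes planted there were larger than those of Nfkb2, Nfkb1 and Nfkbib, so the simulation did not cover calls of that size. Alternatives used DESeq2 1.42.0, limma 3.58.1 and other settings.

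The 10 genes and all lists were chosen with earlier results of these data known. All 10 are described; from each pathway list, up to 4 called genes in each direction of smallest adjusted p and a mean of at least 1 CPM are named, with Traf2, Birc2, Birc3, Chuk, Ikbkb, Ikbkg, Bcl3, Tnfaip3, Ltbr, Ltb, Tnfrsf19, Hdac3 and Myc whatever their result. Some genes that this rule names are not reported here, though counts over their lists include them. Between libraries of a group, the variance of counts was 2.22 to 3.53 times that of counting error (chi-square per degree of freedom). No library was therefore a copy of another. The labels name no molecular identifiers, so limits cover counting error only.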

Additional observations from a re-analysis of the deposited data

How the results depend on the processing

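Relb, Nfkb2 and Nfkb1 were called lower in all 14 settings, with log2 fold changes of -0.81 to -0.63, -0.56 to -0.43 and -0.19 to -0.13. Nfkbib was called in 10. With 1 library left out it measured -0.37 to -0.18, Map3k14 -0.39 to -0.15, Traf3 -0.14 to -0.053 and Nfkbia -0.057 to 0.10. Nfkbia was -0.0017 in limma-voom, and Nfkbie over Nfkbia ranged between -0.061 and 0.23 (log2) with 1 library left out. The other 7 ratios kept their direction in all 8 settings run. The DESeq2 Wald test gave 1011 genes higher against 1543 by edgeR, Nfkbib at -0.26 (adjusted p = 0.106), 0 atypical IkB falls, 0 canonical kinase rises, 1 ligand rise, 4 target rises, 2 target falls and 0 noncanonical target rises.

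Counts in small lists moved by 1 to 3 genes elsewhere. Upper-quartile factors gave 2 target falls. They, total count alone, the 5 CPM minimum and the replicate block each gave 2 rises among canonical kinases and 2 among noncanonical regulators, and no filter gave 0 canonical kinase rises. At 5 CPM there was 1 ligand rise and 0 noncanonical target rises. With 1 library left out, atypical IkB falls ran from 0 to 2, target falls from 2 to 4, target rises from 4 to 8, chromatin partner rises from 0 to 2, noncanonical target rises from 0 to 1, canonical kinase rises from 0 to 1, brake falls from 1 to 2 and noncanonical regulator rises from 1 to 2. The cause was not tested, beyond the fewer genes or libraries in some fits.

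Nothing in the labels says that replicate numbers mark a shared culture, so the numbers were not taken as pairs. Libraries of the same replicate number deviated from their group means with correlations of -0.01, 0.13 and -0.01. Of the 6 libraries, 2 correlated best with their own number. With 3 libraries in each group, this comparison cannot settle whether the numbers mark pairs. Best matches were mutual, RGFP966 library 1 with vehicle library 3, 2 with 2 and 3 with 1, and their cause was not tested. With the replicate block 1667 genes were higher and 1764 lower, brake falls numbered 2, and Traf3 was called (-0.11, adjusted p = 0.0455). Blocked ratios cannot go below an exact permutation p of 0.25. Depth limits Relb most, with 66 to 142 reads per library.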
